A study of Mus musculus with 24 samples.

Results

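Dusp4, Dusp6, Spry2, Spry4, Spred1, Etv4, Etv5, Egr1, Fos and Errfi1 are feedback inhibitors and transcriptional targets of the ERK kinases. They were chosen by gene symbol, as all probes that the array's annotation gives to these 10 genes, and were followed across all 12 groups. They have 14 of the 25697 probes on the array, and all 10 were among the 8932 genes that passed the filter on dim probes. Spry2 passed the filter only through ESCf, so comparisons of it with ESCf are not independent of the filter and are given as a description, with no test.

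The study profiled mouse pluripotent lines on Illumina MouseRef-8 v2 BeadChips, with 2 arrays in each of 12 groups. The GOF18 male epiblast stem cell (EpiSC) family holds EpiSox2mE2 and EpiSox2mE1, which are EpiSCs that overexpress wild-type Sox2 and were grown in ES cell medium (labelled ESC like2 and ESC like1), EpiSox2mL2, the Sox2 line in EpiSC medium (CM), and EpiSCm, the parental EpiSCs. The OG2 female lines are Epi-Sox2f, EpiSCs labelled as overexpressing wild-type Sox2, their parent EpiSCf, and the ES cells ESCf; ESCm are male ES cells. P19-Sox2 and F9-Sox2 are embryonal carcinoma (EC) cells that overexpress wild-type Sox2, and P19 EC and F9 EC are their parents, all labelled male. The labels call the duplicates biological replicates without saying that they were separate cultures, so the p-values measure the spread between these arrays. They do not say which promoter drove Sox2, or whether a Sox2 line was 1 clone or a pool. EpiSCs resemble the post-implantation epiblast and are usually kept with FGF2 and activin, whereas mouse ES cells resemble the earlier, naive epiblast.

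FGF ligands bind FGF receptors, whose adaptors switch on Ras, Raf, MEK and then ERK. Active ERK phosphorylates transcription factors, so that immediate-early genes such as Egr1 and Fos are transcribed within minutes and the ETS factors Etv4 and Etv5 follow. ERK also induces its own brakes: the DUSP phosphatases remove phosphate from ERK, Sprouty and Spred proteins act at the level of Ras and Raf, and Errfi1 (also known as Mig6) inhibits the EGF receptor. In mouse ES cells this pathway, fed by their own Fgf4, is known for moving cells out of the naive state, and EpiSCs depend on FGF. A transcript level is not a measure of ERK phosphorylation, which was not measured here.

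The array set has 2 features that touch the results. The median probe intensity was 90.2 to 101 on the 8 arrays of the GOF18 family and 119 to 152 on the other 16, so brightness and the GOF18 background cannot be told apart; duplicate arrays correlated at 0.9853 to 0.9947. Sox2 itself (log2 intensity) read 10.72 and 10.59 in F9-Sox2, against 9.48 and 9.42 in F9 EC, and 9.83 and 9.63 in P19-Sox2, against 8.94 and 8.88 in P19 EC. It read 9.59 and 9.65 in EpiSox2mE2, 9.45 and 9.56 in EpiSox2mE1 and 9.21 and 9.30 in EpiSox2mL2, against 8.45 and 8.21 in EpiSCm. The arrays labelled Epi-Sox2f read 8.89 and 8.73, against 8.96 and 9.03 in EpiSCf, a log2 difference of -0.18 (adjusted p = 0.32), so Sox2 was not higher there. Of 6 naive ES markers, 5 (Klf4, Esrrb, Dppa5a, Tbx3 and Nr0b1) were detected on neither array of Epi-Sox2f or EpiSCf. Summed naive marker levels were 13400 to 17800 in EpiSox2mE2, EpiSox2mE1 and EpiSox2mL2, against 939 and 857 in EpiSCm. Of the 6 naive markers, 3 were detected on both arrays of EpiSox2mE2, 2 of EpiSox2mE1 and 5 of EpiSox2mL2, against 3 of EpiSCm. Klf4 and Nr0b1 were detected on neither array of EpiSox2mE2 or EpiSox2mE1. Primed marker levels were 6690 to 8440 in the 3 Sox2 groups, against 6900 and 6740 in EpiSCm. Of 9 feeder or fibroblast markers on the array, Col1a2, Postn, Lum and Pdgfrb were detected on neither array of any group. In ESCm and in ESCf 4 of the 9, among them Col1a1, Col3a1 and Dcn, were detected on both arrays, against 1 to 3 in each other group. In bulk RNA, fewer cells of a type and less RNA per cell cannot be told apart.

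Promoter windows are shown for Fos, Errfi1 and Etv5, the only genes searched that had a match to the strings below. Fos and Errfi1 both rose with Sox2 in the carcinoma lines, and Etv5 rose in the Sox2 EpiSCs of the GOF18 family, as given below. Dusp6 rose there too, and its window had no match. RefSeq promoter entries (build GRCm38.p6, 250 bases before to 50 after the start) were matched for 6 of the 10 genes, with 8 windows in all, out of 32851 windows. The strings searched, on both strands, were CCATATTAG (serum response element type), GGAAGT (ETS type), TGACGTCA and its core TGACGT (CRE type; the core lies within the longer string), TGAGTCA (AP-1 type), GCGTGGGCG (EGR type), CCTTTGT (SOX type) and TATAAA. Errfi1 and Etv5 each have a pair of annotated starts, and the window with matches, at an internal start, is given: Fos spans chr12:85473890-85477274, Errfi1 chr4:150853796-150868889 and Etv5 chr16:22381313-22439570. The windows are those of Fos (chr12:85473640-85473939, plus strand), Errfi1 (chr4:150854820-150855119, plus strand) and Etv5 (chr16:22438319-22438618, minus strand), written on the gene's strand with every match in capitals.
Fos: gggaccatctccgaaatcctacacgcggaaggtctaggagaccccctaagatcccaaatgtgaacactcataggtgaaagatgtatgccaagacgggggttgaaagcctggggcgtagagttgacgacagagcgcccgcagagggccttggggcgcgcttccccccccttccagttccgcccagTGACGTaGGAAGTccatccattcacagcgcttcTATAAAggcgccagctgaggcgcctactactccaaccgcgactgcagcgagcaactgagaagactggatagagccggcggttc
Errfi1: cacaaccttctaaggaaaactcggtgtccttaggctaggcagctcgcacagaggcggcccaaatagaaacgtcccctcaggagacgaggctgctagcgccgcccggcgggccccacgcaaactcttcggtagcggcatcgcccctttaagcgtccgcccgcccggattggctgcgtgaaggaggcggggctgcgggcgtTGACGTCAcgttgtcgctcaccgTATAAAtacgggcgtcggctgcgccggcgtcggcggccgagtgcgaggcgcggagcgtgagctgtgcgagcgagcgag
Etv5: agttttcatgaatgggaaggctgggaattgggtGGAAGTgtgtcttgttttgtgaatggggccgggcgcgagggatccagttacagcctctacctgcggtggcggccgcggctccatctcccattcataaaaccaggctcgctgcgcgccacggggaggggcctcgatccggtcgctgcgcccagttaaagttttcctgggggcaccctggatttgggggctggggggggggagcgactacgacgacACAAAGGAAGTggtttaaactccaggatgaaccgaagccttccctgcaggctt
In the Fos window TGACGT began 66 bases before the start, GGAAGT 59 and TATAAA 33. In the Errfi1 window TGACGTCA began 51 bases before the start and TATAAA 28. In the Etv5 window GGAAGT began 217 bases before the start and again just inside it, where it overlaps CCTTTGT read on the opposite strand. Over all windows, GGAAGT occurred in 23.8%, TGACGT in 7.51%, TGACGTCA in 1.79%, CCTTTGT in 5.88% and TATAAA in 13.6%. The serum response, AP-1 and EGR strings occurred in 0.103%, 5.20% and 0.612% and in 0 of the 8 windows searched for these genes. The windows reach only 250 bases before the start, so sites further upstream, also those of Fos, were not searched. The absence of a string here does not mean that the gene lacks such a site. Egr1 and Spry4 were not among the genes searched. The windows of Dusp6, Spred1 and Spry2, and those at the other start of Errfi1 and Etv5, held none of the strings searched. A match describes letters, not a bound site.

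Levels are given below as normalised log2 intensity for both arrays of a group, and each gene's groups are set only against each other, since different probes cannot be compared in level. The phosphatases come first. Dusp4, a nuclear phosphatase of ERK, varied most: its group means spanned 33.8-fold, a wider range than that of 98.3% of the 8932 genes (the median gene spanned 3.33-fold). Dusp4 read 10.94 and 10.78 in EpiSox2mE1, 10.80 and 10.88 in EpiSox2mE2, and 10.71 and 10.80 in P19 EC, and these 3 groups overlapped as neighbours. It read 10.39 and 10.22 in EpiSox2mL2, 10.20 and 10.02 in P19-Sox2, 9.06 and 9.09 in F9-Sox2, 9.02 and 9.07 in ESCm, 8.73 and 8.78 in F9 EC, and 8.69 and 8.61 in EpiSCm. All 3 OG2 groups lay far below: 6.6 and 6.97 in ESCf, 6.43 and 6.30 in EpiSCf, and 5.89 and 5.68 in the arrays labelled Epi-Sox2f, where 1 of 2 arrays detected it. The 3 Dusp4 probes ordered the groups alike, with correlations of 0.94 to 0.99 over the 12 group means.

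Dusp6, the cytoplasmic ERK phosphatase and a classical FGF target, spanned 4.91-fold. Its brightest probe read 12.72 and 12.81 in the arrays labelled Epi-Sox2f, above every other group. It read 12.42 and 12.15 in EpiSox2mE1, 12.10 and 12.18 in EpiSox2mE2, 12.16 and 12.09 in EpiSCf, and 12.11 and 12.11 in EpiSox2mL2, and neighbours among these 4 groups overlapped. The levels were 12.01 and 11.95 in F9 EC, 11.87 and 11.92 in P19 EC, 11.81 and 11.82 in ESCm, 11.82 and 11.62 in P19-Sox2, 11.58 and 11.29 in F9-Sox2, 11.20 and 11.06 in EpiSCm and 10.47 and 10.47 in ESCf. ESCf was therefore the lowest group by this probe, EpiSCm the next.

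The Dusp6 probes did not order the groups alike. The probe used in the fit (ILMN_2925711) correlated at 0.83 with ILMN_2701321 but at 0.23 with ILMN_1248537, over the same 12 group means. By ILMN_1248537 the 4 GOF18 groups were the lowest, with group means of 7.56 in EpiSox2mE2, 7.44 in EpiSox2mE1, 7.02 in EpiSox2mL2 and 6.56 in EpiSCm, against 8.92 in ESCf and 11.04 in the arrays labelled Epi-Sox2f. Whether the sequence under ILMN_1248537 differs in the GOF18 lines was not tested. The 3 probes disagreed against ESCm and in their calls between the media, so their values are given there side by side.

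**Figure D1:**
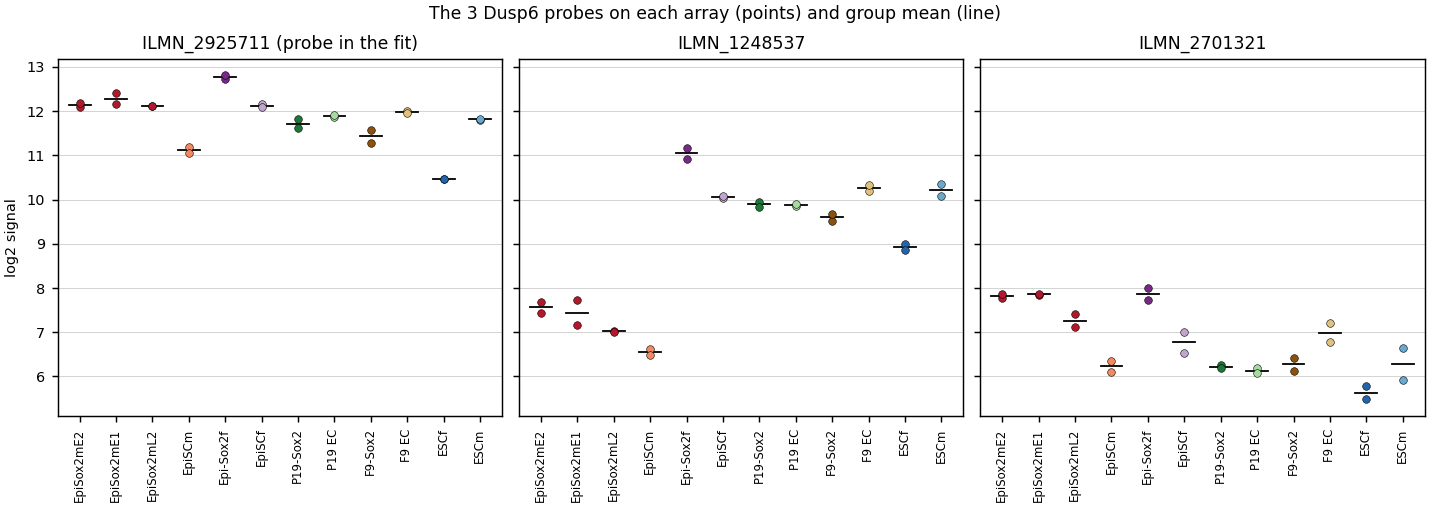
Normalised log2 intensity of the 3 Dusp6 probes in the 12 groups, 1 panel a probe; points are arrays and bars are the means of 2 arrays. The 4 GOF18 groups are near the other groups by ILMN_2925711 and the lowest 4 by ILMN_1248537, with means of 6.56 to 7.56.

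Among the Sprouty and Spred proteins, which restrain Ras-to-Raf signalling, Spry4 spanned 5.82-fold and Spred1 4.31-fold. Spry4 was highest in F9 EC (8.72 and 8.78) and EpiSox2mE2 (8.41 and 8.73), which overlapped. It then read 8.37 and 8.25 in F9-Sox2, 8.12 and 8.19 in EpiSox2mE1, 8.18 and 7.91 in ESCm, 7.78 and 7.68 in EpiSox2mL2, 7.55 and 7.44 in EpiSCm, 7.53 and 7.38 in P19 EC, and 7.35 and 7.20 in P19-Sox2. As with Dusp4, the 3 OG2 groups were the lowest: 7.09 and 6.77 in ESCf, 6.42 and 6.28 in EpiSCf, and 6.22 and 6.21 in the arrays labelled Epi-Sox2f. Spred1 had 8 of its 11 neighbouring groups overlapping, and ran through 9.51 and 9.44 in F9 EC and 9.49 and 9.32 in EpiSCf at the top. Its lowest groups stood apart, at 8.13 and 8.12 in P19 EC, 7.88 and 7.57 in P19-Sox2 and 7.29 and 7.44 in ESCf. Spry2 was dim everywhere and passed detection on both arrays only in ESCf (5.68 and 5.81); the other groups' arrays read 4.37 to 5.35 and were not well above background.

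Etv4 and Etv5 encode ETS transcription factors of the PEA3 family, which are standard readouts of FGF signalling. Etv5 spanned 3.66-fold. It read 9.89 and 10.13 in EpiSox2mE2, 9.94 and 9.86 in EpiSox2mE1, 9.71 and 9.82 in F9-Sox2, 9.29 and 9.63 in F9 EC, and 9.44 and 9.19 in EpiSox2mL2. Below these came a plateau of ESCm (8.88 and 9.04), ESCf (8.74 and 9.03), EpiSCf (8.79 and 8.98) and P19 EC (8.86 and 8.75), which overlapped as neighbours. EpiSCm read 8.55 and 8.67, P19-Sox2 8.53 and 8.23, and the arrays labelled Epi-Sox2f 8.22 and 8.05. Etv4 spanned 6.09-fold, with EpiSox2mL2 (10.50 and 10.19), EpiSox2mE2 (10.17 and 10.40), F9 EC (10.12 and 10.22), EpiSCm (10.45 and 9.77) and EpiSox2mE1 (9.98 and 10.02) overlapping at the top. Its lowest groups were P19 EC (8.64 and 8.55), EpiSCf (8.46 and 8.58), P19-Sox2 (8.25 and 8.47) and the arrays labelled Epi-Sox2f (7.84 and 7.63). The arrays labelled Epi-Sox2f were thus lowest for Dusp4, Spry4, Etv4 and Etv5 while being highest for Dusp6.

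The immediate-early transcription factors were the least reproducible between duplicates, with pooled within-group SDs of 0.30 for Egr1 and 0.38 for Fos, against 0.10 to 0.20 for the other 8 genes. Egr1 spanned 7.26-fold. It read 11.42 and 11.65 in the arrays labelled Epi-Sox2f, 11.43 and 11.42 in ESCm and 11.56 and 11.01 in EpiSCf, above all other groups, and 9.12 and 8.24 in F9 EC, below all others. Between them lay EpiSox2mE1 (10.71 and 10.49), P19-Sox2 (10.64 and 10.25), F9-Sox2 (10.63 and 10.23), P19 EC (10.26 and 10.17), EpiSox2mE2 (10.40 and 9.86), EpiSCm (9.75 and 10.35), EpiSox2mL2 (9.51 and 9.57) and ESCf (9.29 and 9.55). Fos, a partner of Jun in the AP-1 dimer, spanned 5.47-fold and split into 2 ranges. It read 8.30 and 8.35 in the arrays labelled Epi-Sox2f, 8.21 and 8.39 in ESCm, 8.94 and 7.53 in EpiSCf, 8.26 and 7.94 in EpiSox2mE1, 7.61 and 8.33 in ESCf, 7.18 and 7.88 in EpiSox2mE2, 7.36 and 7.08 in F9-Sox2, and 7.32 and 6.84 in P19-Sox2. The lower range held EpiSox2mL2 (6.49 and 6.21), P19 EC (6.01 and 5.93), F9 EC (5.77 and 5.97) and EpiSCm (5.86 and 5.88).

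Errfi1, the EGF receptor inhibitor, spanned 7.43-fold and separated the groups most cleanly, with only 2 of 11 neighbouring pairs overlapping (EpiSox2mE1 with EpiSox2mE2, and the arrays labelled Epi-Sox2f with F9-Sox2). The GOF18 family was on top: EpiSox2mL2 read 10.38 and 10.24, EpiSox2mE1 9.70 and 9.54, EpiSox2mE2 9.60 and 9.62, and EpiSCm 9.52 and 9.36. ESCm read 9.28 and 9.26, ESCf 8.89 and 9.22, the arrays labelled Epi-Sox2f 8.78 and 8.63, F9-Sox2 8.59 and 8.67, and EpiSCf 8.29 and 8.19. The EC lines other than F9-Sox2 were lowest, at 7.87 and 8.18 in P19-Sox2, 7.82 and 7.83 in F9 EC and 7.48 and 7.36 in P19 EC.

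**Figure D2:**
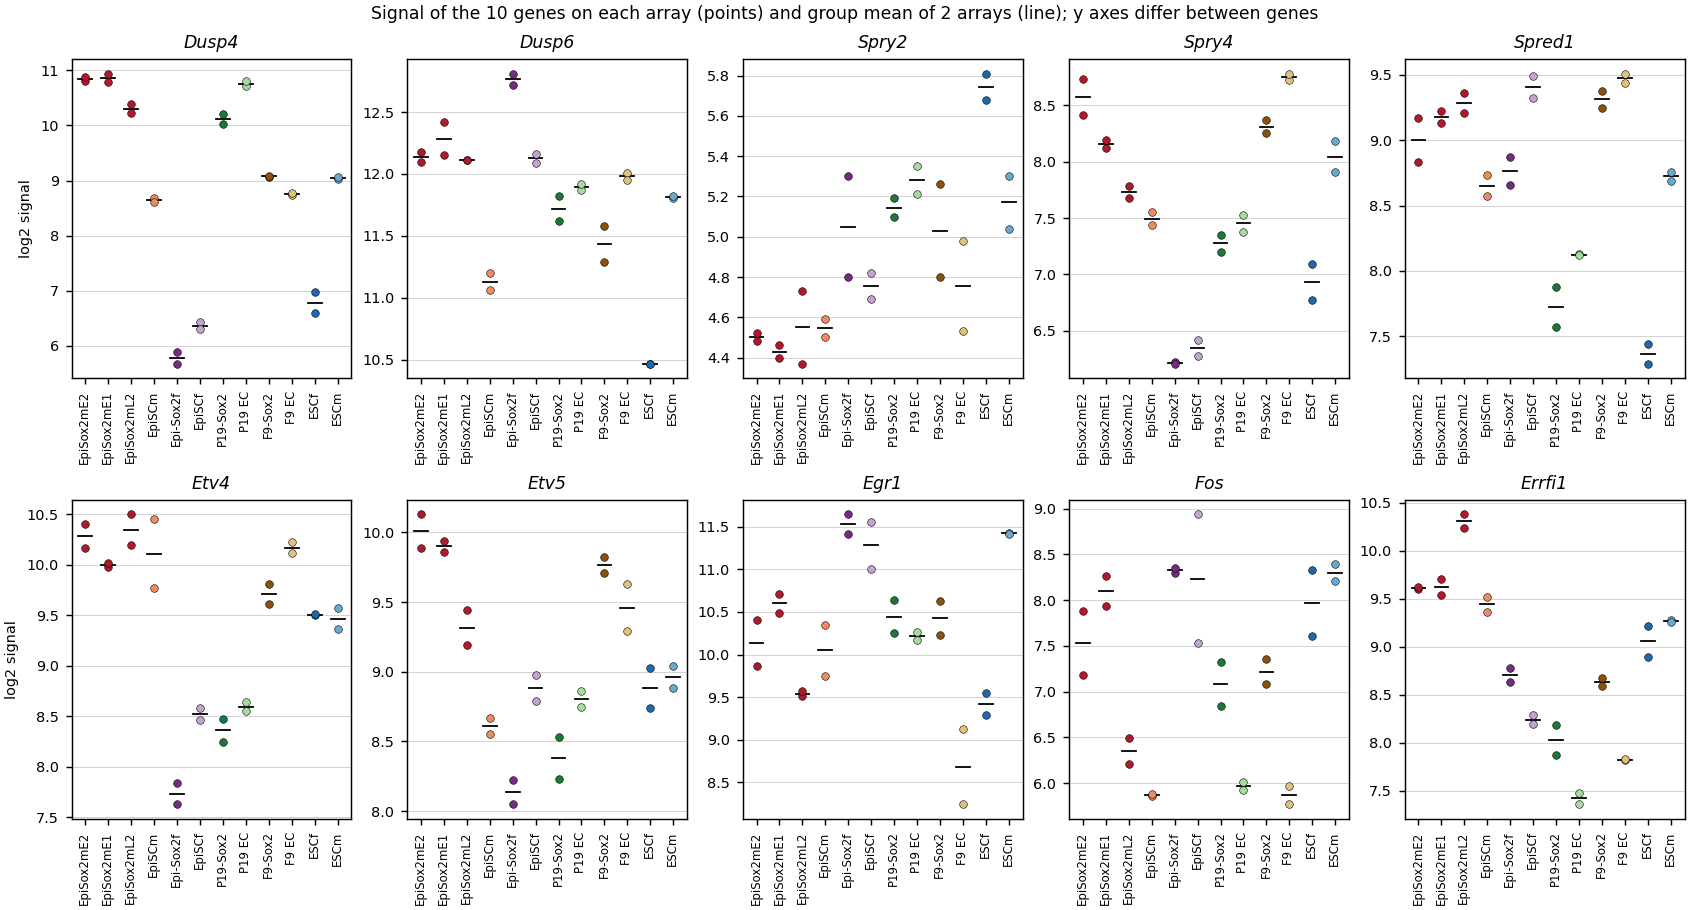
Normalised log2 intensity of the 10 genes in the 12 groups, 1 panel a gene; points are arrays and bars the means of 2 arrays, with Sox2 lines left of their parents. Dusp4 spans 33.8-fold, with the 3 OG2 groups lowest, and Fos has 4 groups in a lower range (EpiSox2mL2, P19 EC, F9 EC and EpiSCm).

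The first question is how these genes differ between the primed and the naive state. In the OG2 female lines, EpiSCs had more Dusp6, Spred1 and Egr1 and less Dusp4, Spry4, Etv4 and Errfi1 than ES cells. A limma fit over all 24 arrays called 8 of the 10, 3 higher and 5 lower, where it called 60.2% of all genes at an adjusted p under 0.05; one of the 5 is Spry2, whose direction the filter fixes, so 7 calls are independent of it. The members' median log2 difference was -0.21, against 0.07 over all genes. Over all genes 54.7% of the calls were higher in EpiSCf (65.5% with the arrays scaled to a common median).

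Spred1 had 9.49 and 9.32 in EpiSCf, against 7.29 and 7.44 in ESCf, which is 4.11-fold higher (log2 2.04 ± 0.14 SE, adjusted p = 8.7e-10). Egr1 was 3.66-fold higher (log2 1.87 ± 0.27, adjusted p = 9.6e-06) and Dusp6 3.16-fold higher (log2 1.66 ± 0.13, adjusted p = 3.2e-09); Dusp6's other probes gave 1.14 and 1.13. Spry4 was 1.49-fold lower (log2 -0.58 ± 0.14, adjusted p = 0.002; -0.37 and not called with the arrays scaled to a common median), and Spry2, not well above background in EpiSCf, was at least 1.05-fold lower. Etv4 was 1.98-fold lower (log2 -0.98 ± 0.18, adjusted p = 0.00014) while its relative Etv5 gave 0.00 (95% interval -0.33 to 0.33). Errfi1 was 1.76-fold lower (log2 -0.81 ± 0.14, adjusted p = 5.2e-05). Dusp4 differed by -0.43 (adjusted p = 0.011), but by -0.24 (adjusted p = 0.2) without ESCf replicate 2 and -0.36 (adjusted p = 0.081) without EpiSCf replicate 2. Nor was it called with no background subtraction (-0.20, adjusted p = 0.06), with the arrays scaled to a common median (-0.23, adjusted p = 0.3), as the mean of its kept probes (-0.24, adjusted p = 0.26) or in a fit of these 2 groups alone (-0.42, adjusted p = 0.057). The Fos duplicates of EpiSCf were far apart: its difference was 0.27 (adjusted p = 0.5), and 0.97 (adjusted p = 0.01) without EpiSCf replicate 2.

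In the male comparison, EpiSCs had less Fos, Egr1, Dusp6, Spry4 and Dusp4 than ES cells, and more Etv4. The fit called 7 of the 10, 1 higher and 6 lower, where it called 69.7% of all genes, and the members' median was -0.47, against 0.18 over all genes. Of all calls, 59.0% were higher in EpiSCm, but 38.7% with the arrays scaled to a common median, which put the median of all genes at -0.17. The EpiSCm arrays were dimmer (median intensity 101.1 and 90.19, against 129.4 and 126.1 in ESCm), so brightness and state cannot be told apart in this pair. Fos had 5.86 and 5.88 in EpiSCm, against 8.21 and 8.39 in ESCm, 5.39-fold lower (log2 -2.43 ± 0.33, adjusted p = 4e-06). Egr1 was 2.60-fold lower (log2 -1.38 ± 0.27, adjusted p = 0.0002), and Spry4 differed by -0.55 ± 0.14 (adjusted p = 0.0023). Dusp6 was 1.60-fold lower by the probe in the fit (log2 -0.68 ± 0.13, adjusted p = 0.00013), while its other probes gave -3.66 (ILMN_1248537) and -0.05 (ILMN_2701321, adjusted p = 0.85), so whether and by how much Dusp6 differed depends on the probe. Etv4 was 1.56-fold higher (log2 0.64 ± 0.18, adjusted p = 0.0045); the EpiSCm duplicates were 10.45 and 9.77. It was 0.30 (adjusted p = 0.14) without EpiSCm replicate 1 and 0.16 (adjusted p = 0.56) with the arrays scaled to a common median, a scaling that called Spred1 (-0.58) and Etv5 (-0.85) lower. Dusp4 differed by -0.39 (adjusted p = 0.015), which became -0.36 without ESCm replicate 2 (adjusted p = 0.074) and without EpiSCm replicate 2 (adjusted p = 0.068). Nor was Dusp4 called as the mean of its kept probes (-0.34, adjusted p = 0.11) or in a fit of these 2 groups alone (-0.39, adjusted p = 0.057). Its other probes gave -0.57 (ILMN_2870965, adjusted p = 0.021) and -0.06 (ILMN_2608995, adjusted p = 0.89). Spry2 was called lower but was not well above background in either group, so no fold is given; its call was lost without ESCm replicate 2 (adjusted p = 0.076). Spred1 (-0.07, adjusted p = 0.66), Etv5 (-0.35, adjusted p = 0.056) and Errfi1 (0.17, adjusted p = 0.29) did not pass.

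The difference between the 2 primed-minus-naive effects was tested as an interaction. It was called for 6 of the 10 genes, 4 higher in the female pair and 2 lower, where 50.7% of all genes were called. Egr1 moved in opposite directions, with a difference of effects of 3.25 (adjusted p = 1.8e-06). For Dusp6 the difference was 2.34 (adjusted p = 1.5e-08) by the probe in the fit, 4.80 by ILMN_1248537 (adjusted p = 8.9e-11) and 1.19 by ILMN_2701321 (adjusted p = 0.0042). In the male pair itself 2 of the 3 Dusp6 probes were called. It was 2.70 for Fos (adjusted p = 0.00012), 2.11 for Spred1 (adjusted p = 1.6e-07), -1.63 for Etv4 (adjusted p = 4.6e-05) and -0.98 for Errfi1 (adjusted p = 0.0004). Sex and line differ together between the pairs, and only the EpiSCm arrays of the 4 groups were dim, so these cannot be told apart. With the arrays scaled to a common median the Errfi1 call was lost (-0.20, adjusted p = 0.54), and Dusp4 (0.67), Spry4 (0.70) and Etv5 (1.18) were called, 8 of the 10 in all. The other 5 were called in each of the 16 alternatives run. Over all genes 45.5% of the calls were higher in the female pair, and 77.9% with that scaling.

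**Figure D3:**
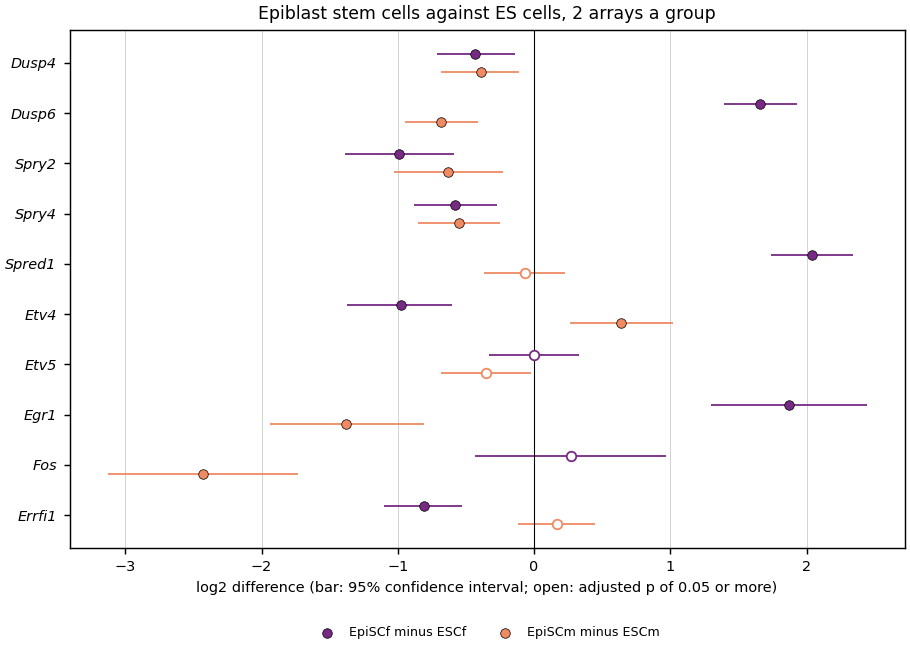
Log2 difference of EpiSCs minus ES cells for the 10 genes in the OG2 female pair and in the male pair; points are estimates, bars are 95% confidence intervals and open points have an adjusted p of 0.05 or more. Egr1, and Dusp6 by the probe in the fit, lie right of 0 in the female pair and left of 0 in the male pair.

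Around these genes, the FGF ligands changed most. All 5 tested ligands were called in both pairs, 3 higher and 2 lower, with list medians of 3.0 (female) and 1.73 (male), against 0.07 and 0.18 over all genes. Fgf5, an epiblast marker, was at least 28.2-fold higher in EpiSCf and at least 32.5-fold higher in EpiSCm, and Fgf8 at least 20.7-fold and 21.3-fold higher, each against its ES line. Fgf4, the ligand that ES cells make for themselves, was at least 9.61-fold lower in EpiSCf and differed by -2.18 in EpiSCm. The docking adaptor Gab1 had a mean of 7.81 in EpiSCf, against 11.77 in ESCf, a difference of -3.96 (adjusted p = 2.6e-13), and differed by -3.18 in EpiSCm. Of the 8 receptors and adaptors tested, 2 were higher and 2 lower in the female pair, and 4 and 2 in the male pair. Of the 8 Ras, Raf, MEK and ERK genes, 3 were higher and 3 lower, and 3 and 4. The MEK1 gene Map2k1 differed by -1.20 in EpiSCf and was at least 17.6-fold lower in EpiSCm, where it was not well above background. That value rests on 1 probe that was dim in all GOF18 groups, and whether the sequence under it differs in these lines was not tested.

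A list of other feedback genes holds Sprouty, Spred and Sef genes and genes of other families, such as Etv1, Lrig1 and Lrig3. Of its 8 tested genes 5 were higher and 1 lower in EpiSCf, and 4 higher and 1 lower in EpiSCm, with list medians of 0.92 and 0.63. The Etv4 relative Etv1 differed by 2.45 in EpiSCf and 1.45 in EpiSCm, and Lrig3 by 2.59 and 1.44. Of 9 other DUSP genes, 3 were higher and 2 lower in the female pair and 4 and 3 in the male pair: Dusp7 differed by 1.82 in EpiSCf, and Dusp1, an immediate-early phosphatase, by -1.68 and -1.35. Of 7 ERK effectors, 4 were higher and 2 lower, and 4 and 0; the serum response factor gene Srf differed by 1.69 in EpiSCf. Of 12 other immediate-early genes, 3 were higher and 2 lower, and 6 and 2, and the EGF-family ligand Hbegf was at least 3.95-fold lower in EpiSCf and differed by -2.77 in EpiSCm. Markers of other states and cells moved with these genes. All 6 naive markers were called lower in both pairs, with summed levels of 83.4 and 89.2 in EpiSCf, against 45700 and 45400 in ESCf, and 939 and 857 in EpiSCm, against 48000 and 44200 in ESCm. Of 5 feeder markers tested 3 were lower in both pairs (322 and 308 summed in EpiSCf, against 669 and 591 in ESCf, and 266 and 228 in EpiSCm, against 485 and 434 in ESCm), and 4 of 5 trophoblast markers. Their part in the differences was not tested.

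The next question is how these genes differed between the Sox2 lines and their parents. No group is labelled as a control-vector line, so Sox2 and the making of a line cannot be told apart. Below, a Sox2 effect means the Sox2 line minus its parent. Egr1, Fos and Errfi1 were higher and Dusp6 lower in F9-Sox2 than in F9 EC. The fit called 4 of the 10, where it called 9.72% of all genes; the members' median was 0.28, against 0.00 over all genes. Egr1 had 10.63 and 10.23 in F9-Sox2, against 9.12 and 8.24 in F9 EC, 3.36-fold higher (log2 1.75 ± 0.27, adjusted p = 0.00026). Fos had 7.36 and 7.08, against 5.77 and 5.97, 2.54-fold higher (log2 1.35 ± 0.33, adjusted p = 0.013). Errfi1 had 8.59 and 8.67 in F9-Sox2, against 7.82 and 7.83 in F9 EC, 1.75-fold higher (log2 0.81 ± 0.14, adjusted p = 0.00062). The arrays of the 2 groups did not overlap for these 3 genes or for Dusp6. They did not overlap either for Dusp4, Spry4, Spred1, Etv4 and Etv5, which were not called. How many of all genes lacked overlap was not counted, so this describes the arrays and is no result about these genes. Dusp6 was 1.47-fold lower (log2 -0.55 ± 0.13, adjusted p = 0.009), and its other probes gave -0.67 and -0.71. Egr1 and Errfi1 were called in each of the 12 alternatives. Dusp6 was not called without F9 EC replicate 1 (-0.52, adjusted p = 0.077) or F9-Sox2 replicate 2 (-0.41, adjusted p = 0.15), nor Fos without F9 EC replicate 1 (1.25, adjusted p = 0.11), F9 EC replicate 2 (1.45, adjusted p = 0.054) or F9-Sox2 replicate 1 (1.21, adjusted p = 0.11). Of all calls 55.2% were higher in F9-Sox2 (39.7% with the arrays scaled to a common median).

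In P19-Sox2, Fos and Errfi1 were higher and Dusp4 lower than in P19 EC. The fit called 3 of the 10, where it called 10.4% of all genes; the members' median was -0.18, against -0.01 over all genes. Dusp4 had 10.20 and 10.02 in P19-Sox2, against 10.71 and 10.80 in P19 EC, 1.56-fold lower (log2 -0.64 ± 0.14, adjusted p = 0.0042), and its second probe gave -0.46 (adjusted p = 0.2). Fos had 7.32 and 6.84, against 6.01 and 5.93, 2.16-fold higher (log2 1.11 ± 0.33, adjusted p = 0.04). Errfi1 had 7.87 and 8.18 in P19-Sox2, against 7.48 and 7.36 in P19 EC, 1.52-fold higher (log2 0.61 ± 0.14, adjusted p = 0.0067). The arrays did not overlap for these 3 genes, nor for Dusp6, Spry2, Spry4, Spred1, Etv4 and Etv5, which were not called. Here too the share of all genes without overlap was not counted, so non-overlap is a description only. The 3 calls turned on single arrays. They were lost without P19 EC replicate 2 (Dusp4 -0.60, Fos 1.07, Errfi1 0.54) and without P19-Sox2 replicate 2 (-0.55, 1.35 and 0.46). The Fos call was also lost without P19 EC replicate 1 (1.15, adjusted p = 0.14) and without P19-Sox2 replicate 1 (0.87, adjusted p = 0.21). Of all calls 56.6% were higher in P19-Sox2 (39.8% with the arrays scaled to a common median, where Errfi1 gave 0.45 and was not called).

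The Sox2 effect differed between the EC lines for 3 of the 10 genes, all lower in P19, where 9.99% of all genes were called. The difference of effects, P19 minus F9, was -0.97 for Dusp4 (adjusted p = 0.0028), -1.52 for Egr1 (adjusted p = 0.015) and -0.73 for Etv5 (adjusted p = 0.047). Dusp4 was called in each of the 16 alternatives. Its other probes gave -0.62 (ILMN_2870965, adjusted p = 0.23) and -1.44 (ILMN_2608995, adjusted p = 0.081) and were not called. Egr1 was not called without F9 EC replicate 2 (-1.08), F9-Sox2 replicate 1 (-1.32), P19 EC replicate 1 (-1.48) or P19-Sox2 replicate 2 (-1.33). Etv5 kept its call without F9 EC replicate 2 and without P19-Sox2 replicate 1, and was not called without any other single array (-0.56 to -0.78, the replicates being F9 EC 1, F9-Sox2 1 and 2, P19 EC 1 and 2 and P19-Sox2 2). Etv5 was also not called with the replicate number as a block (adjusted p = 0.056), the authors' log2 values (adjusted p = 0.062) or no detection filter (adjusted p = 0.069). In a fit of only the groups compared its adjusted p was 0.083, and with the arrays scaled to a common median 0.11. For Fos and Errfi1 the difference of effects was not called.

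Other pathway genes were called in small numbers. In F9-Sox2, 1 of 5 FGF ligands rose, Fgf17 (9.25, against 7.78 in F9 EC), and 1 fell, Fgf5 (-0.67, adjusted p = 0.037). Of the 8 other feedback genes 0 rose and 2 fell, Lrig1 (-0.67) and Etv1 (-0.60). Of 12 immediate-early genes 2 rose and 0 fell, namely Junb (log2 1.19, adjusted p = 0.00012), which pairs with Fos, and Zfp36 (0.58). Of 9 DUSP genes 2 rose, Dusp16 (1.33) and Dusp14 (at least 1.49-fold), and Hbegf fell by 1.43. In P19-Sox2, 2 ligands rose, Fgf5 (1.99) and Fgf15 (1.35), and Fgf8 fell by 1.21; 1 immediate-early gene, Klf6, rose (0.97) and 0 of 9 DUSP genes were called. List medians were -0.10 to 0.12 in F9-Sox2 and -0.02 to 0.39 in P19-Sox2, against 0.00 and -0.01 over all genes. Of 5 trophoblast markers tested 2 rose in F9-Sox2, where the summed level of the list was 4170 and 4370, against 1580 and 1670 in F9 EC, with Cdx2, Elf5, Krt7, Ascl2 and Hand1 detected on no array; their part in the results was not tested.

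In the OG2 female EpiSCs, the arrays labelled Epi-Sox2f had more Dusp6 and Errfi1 and less Dusp4, Spred1, Etv4 and Etv5 than EpiSCf. Sox2 was not higher on these arrays, so the direction describes the labels. The fit called 6 of the 10, 2 higher and 4 lower, where it called 28.9% of all genes, with a members' median of -0.03, against -0.01 over all genes. Dusp6 was 1.55-fold higher (log2 0.64 ± 0.13, adjusted p = 0.0014), and its other probes gave 0.98 and 1.09. Etv4 had 7.84 and 7.63 in the arrays labelled Epi-Sox2f, against 8.46 and 8.58 in EpiSCf, 1.72-fold lower (log2 -0.78 ± 0.18, adjusted p = 0.0037), and Etv5 was 1.68-fold lower (log2 -0.75 ± 0.16, adjusted p = 0.0019). Spred1 differed by -0.64 ± 0.14 (adjusted p = 0.0028), Dusp4 by -0.58 ± 0.14 (adjusted p = 0.0037) and Errfi1 by 0.46 ± 0.14 (adjusted p = 0.017). Errfi1 was not called without EpiSCf replicate 1 (0.51), EpiSCf replicate 2 (0.42) or Epi-Sox2f replicate 1 (0.39), nor Dusp4 without Epi-Sox2f replicate 2 (-0.48, adjusted p = 0.053), with no background subtraction (-0.22, adjusted p = 0.068) or as the mean of its kept probes (-0.26, adjusted p = 0.31). The second Dusp4 probe gave -0.15 (adjusted p = 0.67) and was detected on none of these arrays. Of all calls 46.8% were higher in the arrays labelled Epi-Sox2f (36.7% with the arrays scaled to a common median, where Errfi1 gave 0.35 and was not called). Egr1 and Fos did not pass. Among 12 other immediate-early genes 4 were higher, led by Ier3 (8.07, against 6.89), and 2 lower, led by Jund (-1.32); 0 of 5 ligands were higher and 2 lower, Fgf17 (-1.28) and Fgf8 (-0.80). Summed feeder levels were 548 and 475 in the arrays labelled Epi-Sox2f, against 322 and 308 in EpiSCf, with 1 of 5 tested markers higher; their part was not tested.

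In the GOF18 male EpiSCs kept in EpiSC medium, Sox2 overexpression went with more Dusp4, Dusp6, Spred1, Etv5 and Errfi1. The fit called 5 of the 10, all higher, where it called 24.3% of all genes, and the members' median was 0.56, against -0.01 over all genes. Dusp4 had 10.39 and 10.22 in EpiSox2mL2, against 8.69 and 8.61 in EpiSCm, 3.15-fold higher (log2 1.66 ± 0.14, adjusted p = 1e-07), with 1.47 by its second probe. Dusp6 was 1.97-fold higher (log2 0.98 ± 0.13, adjusted p = 3.2e-05); ILMN_2701321 gave 1.03 (adjusted p = 0.003) and ILMN_1248537 0.46 (adjusted p = 0.057). Errfi1 had 10.38 and 10.24 in EpiSox2mL2, against 9.52 and 9.36 in EpiSCm, 1.83-fold higher (log2 0.87 ± 0.14, adjusted p = 0.0002). Etv5 was 1.63-fold higher (log2 0.71 ± 0.16, adjusted p = 0.0039) and Spred1 1.55-fold higher (log2 0.63 ± 0.14, adjusted p = 0.004). The immediate-early factors did not pass: Egr1 differed by -0.51 (adjusted p = 0.18) and Fos by 0.48 (adjusted p = 0.32). Etv5 was not called without EpiSox2mL2 replicate 1 (0.58, adjusted p = 0.056), and Etv4 was called without EpiSCm replicate 1 (0.58, adjusted p = 0.029). Of all calls 53.2% were higher in EpiSox2mL2 (40.2% with the arrays scaled to a common median, where Spred1 gave 0.54 and was not called).

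The EpiSC effects differed between the male and the female line for 4 of the 10 genes, all higher in the male line, where 32.2% of all genes were called. The difference of effects, EpiSox2mL2 minus the arrays labelled Epi-Sox2f, each against its parent, was 2.24 for Dusp4 (adjusted p = 3.2e-07), 1.46 for Etv5 (adjusted p = 0.00012), 1.28 for Spred1 (adjusted p = 0.00016) and 1.02 for Etv4 (adjusted p = 0.0058). All 4 were called in each of the 16 alternatives, the Etv4 difference being 0.68 without EpiSCm replicate 2. Sox2 rose in the male line and not on the arrays labelled Epi-Sox2f, so the 2 effects are not of the same change in Sox2. Dusp6 and Errfi1 were higher in both lines. Errfi1 was called higher in all 4 comparisons of a Sox2-labelled line with its parent in the parent's medium, which include the arrays labelled Epi-Sox2f. The call held in every alternative only in F9-Sox2 and EpiSox2mL2. In ES cell medium Errfi1 was not called against EpiSCm (0.18 in EpiSox2mE1 and 0.17 in EpiSox2mE2).

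Other pathway genes in EpiSox2mL2 included both ligands of the primed state, lower, and the ES ligand, higher. Fgf8 had a mean of 6.30 in EpiSox2mL2, against 9.89 in EpiSCm (log2 -3.59), Fgf5 7.99, against 10.50 (-2.51), and Fgf4 8.50, against 6.53 (1.96). Gab1 had 11.05, against 8.91 (2.14). Of 12 other immediate-early genes 4 rose, led by Jund (1.07) and Junb (0.91), and 1 fell. Of the 8 other feedback genes 0 rose and 2 fell, Lrig1 (-0.91) and Lrig3 (-0.45). Of 6 naive markers 4 rose, with summed levels of 15500 and 16700 in EpiSox2mL2, against 939 and 857 in EpiSCm, and their part in these changes was not tested.

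The Sox2 EpiSCs in ES cell medium were compared with the same parent. They had more Dusp4, Dusp6, Spry4, Etv5 and Fos than EpiSCm, and EpiSox2mE1 also had more Spred1. The fit called 6 of the 10 in EpiSox2mE1, all higher, where it called 28.7% of all genes, and 5 of the 10 in EpiSox2mE2, all higher, where it called 28.4%. The members' medians were 0.60 and 0.68, against -0.03 over all genes in both. The 2 comparisons share the EpiSCm arrays. Dusp4 was 4.62-fold higher in EpiSox2mE1 (log2 2.21 ± 0.14, adjusted p = 1.7e-09) and 4.56-fold higher in EpiSox2mE2 (log2 2.19 ± 0.14, adjusted p = 2e-09). Fos had 8.26 and 7.94 in EpiSox2mE1 and 7.18 and 7.88 in EpiSox2mE2, against 5.86 and 5.88 in EpiSCm, which is 4.69-fold higher (adjusted p = 6.5e-05) and 3.16-fold higher (adjusted p = 0.0011). Etv5 was 2.44-fold (adjusted p = 8.8e-06) and 2.63-fold higher (adjusted p = 3.8e-06), and Dusp6 2.23-fold (adjusted p = 2.8e-06) and 2.01-fold higher (adjusted p = 1.4e-05), with the other Dusp6 probes at 0.89 and 1.63 in EpiSox2mE1 and 1.01 and 1.59 in EpiSox2mE2.

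Spry4 was 1.58-fold higher in EpiSox2mE1 (log2 0.66 ± 0.14, adjusted p = 0.002) and 2.12-fold higher in EpiSox2mE2 (log2 1.08 ± 0.14, adjusted p = 2.2e-05), each against EpiSCm. Spred1 was 1.44-fold higher in EpiSox2mE1 (adjusted p = 0.0095), and not called without EpiSCm replicate 1 (0.45) or EpiSox2mE1 replicate 1 (0.49). In EpiSox2mE2 Spred1 gave 0.35 (adjusted p = 0.076), and 0.52 (adjusted p = 0.026) without EpiSox2mE2 replicate 1, while Etv4 was called without EpiSCm replicate 1 (0.52). The 5 calls of EpiSox2mE2 were made in each of the 12 alternatives, and so were Dusp4, Dusp6, Etv5 and Fos in EpiSox2mE1. Egr1 did not pass in EpiSox2mE1 (0.55, adjusted p = 0.14). Over all genes 46.0% of the calls were higher in EpiSox2mE1 and 43.6% in EpiSox2mE2, against 32.7% and 12.0% with the arrays scaled to a common median, where Spry4 (0.54) and Spred1 (0.47) were not called in EpiSox2mE1. Trophoblast markers moved with these genes, 4 of 5 tested higher and 1 lower in both: their summed levels were 2520 and 2320 in EpiSox2mE1 and 2370 and 2410 in EpiSox2mE2, against 1430 and 1310 in EpiSCm, with Elf5 and Hand1 detected on no array of these groups. Of 5 feeder markers tested 1 was higher in EpiSox2mE1 (350 and 382 summed) and 3 in EpiSox2mE2 (418 and 521), against 266 and 228 in EpiSCm. Of 6 naive markers 3 were higher and 1 lower in EpiSox2mE1, and 3 and 0 in EpiSox2mE2. The part of these states and cells in the results was not tested.

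**Figure D4:**
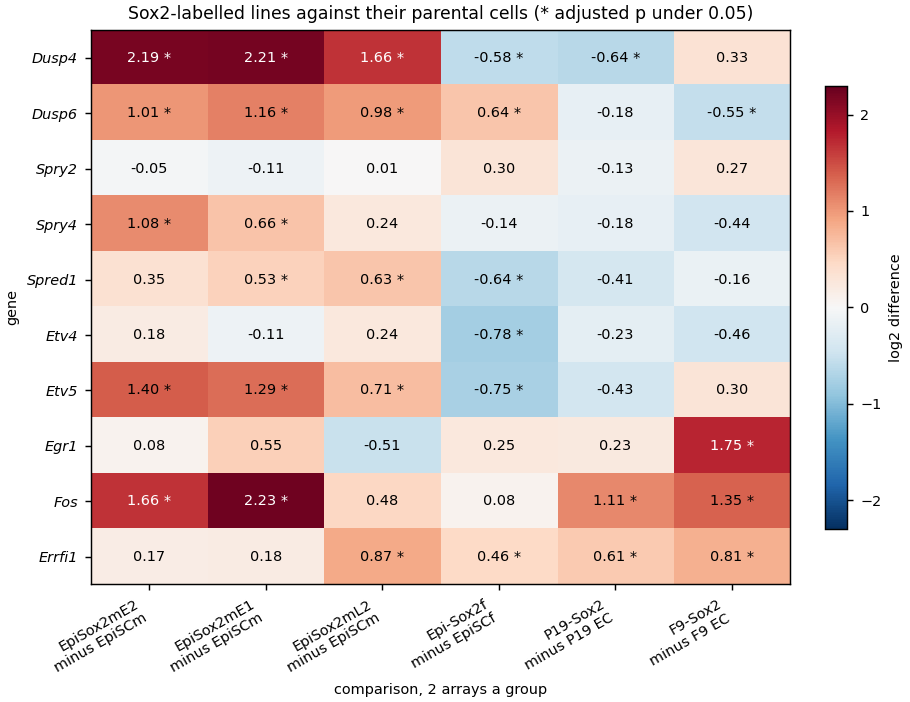
Log2 difference of 6 Sox2-labelled groups minus their parental cells (columns) for the 10 genes (rows), given as colour and number, with an asterisk for an adjusted p under 0.05; the 3 GOF18 columns share the EpiSCm arrays. Errfi1 is called higher in 4 columns but not in EpiSox2mE2 (0.17) or EpiSox2mE1 (0.18), and Dusp4 is called higher in the 3 GOF18 columns and lower in Epi-Sox2f (-0.58) and P19-Sox2 (-0.64).

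The 2 ES-medium groups were also compared with EpiSox2mL2, all labelled as Sox2 lines. They are separate cultures, and Sox2 was itself higher in EpiSox2mE2 than in EpiSox2mL2 (log2 0.37, adjusted p = 0.033; 0.25 and not called in EpiSox2mE1), so medium, culture and Sox2 level cannot be told apart. Dusp4, Spry4, Etv5 and Fos were higher and Errfi1 lower in ES cell medium. The fit called 6 of the 10 in EpiSox2mE1, 5 higher and 1 lower, where it called 31.2% of all genes, and 5 of the 10 in EpiSox2mE2, 4 higher and 1 lower, where it called 35.1%. The members' medians were 0.30 and 0.28, against 0.00 and -0.01 over all genes, and the 2 comparisons share the EpiSox2mL2 arrays. Fos was 3.37-fold higher in EpiSox2mE1 (log2 1.75 ± 0.33, adjusted p = 0.00057) and 2.27-fold higher in EpiSox2mE2 (log2 1.18 ± 0.33, adjusted p = 0.0099). Egr1 was 2.08-fold higher in EpiSox2mE1 (log2 1.06 ± 0.27, adjusted p = 0.006), and differed by 0.59 in EpiSox2mE2, which was not called. Errfi1 had 9.70 and 9.54 in EpiSox2mE1 and 9.60 and 9.62 in EpiSox2mE2, against 10.38 and 10.24 in EpiSox2mL2, 1.61-fold lower (adjusted p = 0.00082) and 1.62-fold lower (adjusted p = 0.00067). Spry4 differed by 0.43 (adjusted p = 0.031) and 0.84 (adjusted p = 0.00019), Etv5 by 0.58 (adjusted p = 0.009) and 0.69 (adjusted p = 0.0025), and Dusp4 by 0.55 (adjusted p = 0.0045) and 0.53 (adjusted p = 0.005). Dusp6 differed by 0.17 and 0.03 by the probe in the fit, neither called, by 0.42 (adjusted p = 0.07) and 0.54 (adjusted p = 0.019) by ILMN_1248537, and by 0.60 (adjusted p = 0.05) and 0.56 (adjusted p = 0.061) by ILMN_2701321. As the mean of its 3 probes Dusp6 was called higher in both, at 0.40 (adjusted p = 0.023) and 0.38 (adjusted p = 0.028).

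Several of these calls turned on 1 array. Without EpiSox2mL2 replicate 2, EpiSox2mE1 lost Dusp4 (0.47), Spry4 (0.37) and Etv5 (0.46), and EpiSox2mE2 lost Dusp4 (0.45) and Fos (1.04). Fos in EpiSox2mE2 was also not called without EpiSox2mE2 replicate 2 (0.84, adjusted p = 0.12), where Spred1 was called lower (-0.45) and Egr1 higher (0.86). Spry4 in EpiSox2mE1 was not called without any 1 of the 4 arrays (0.48 without EpiSox2mL2 replicate 1, 0.46 without EpiSox2mE1 replicate 1, 0.39 without EpiSox2mE1 replicate 2), nor Etv5 without EpiSox2mE1 replicate 1 (0.55). Of all calls 44.6% were higher in EpiSox2mE2 (16.1% with the arrays scaled to a common median, where Dusp4, 0.36, Etv5, 0.46, and Fos, 0.78, were not called, nor Spry4, 0.37, in EpiSox2mE1).

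**Figure D5:**
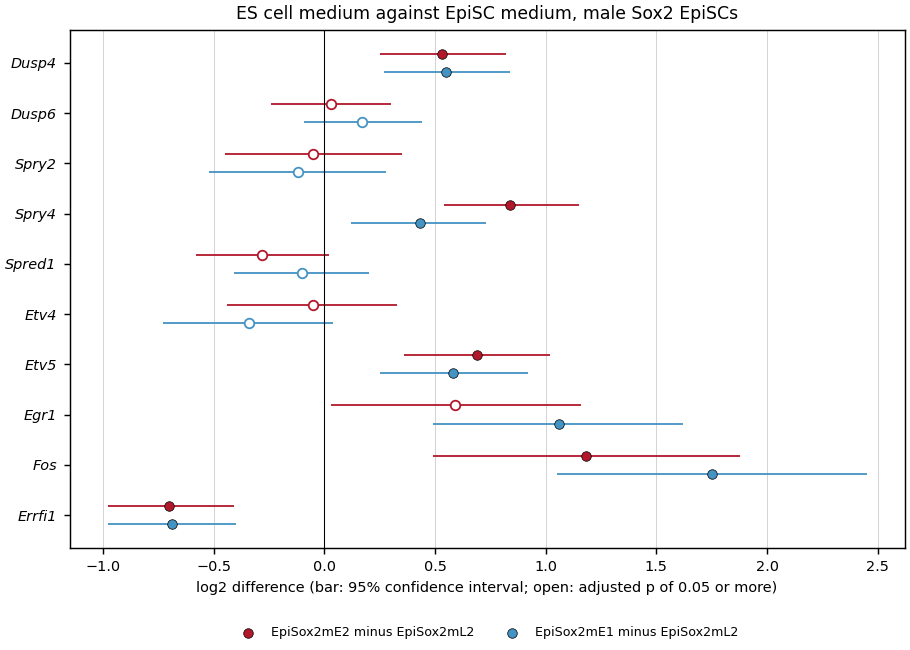
Log2 difference of Sox2 EpiSCs in ES cell medium (EpiSox2mE2 and EpiSox2mE1) minus those in EpiSC medium (EpiSox2mL2) for the 10 genes; points are estimates, bars are 95% confidence intervals and open points have an adjusted p of 0.05 or more. Fos lies furthest right (1.18 and 1.75), and Errfi1 is lower in both (-0.70 and -0.69).

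The primed ligands were also higher in ES cell medium. Fgf8 had a mean of 11.54 in EpiSox2mE1 and 11.23 in EpiSox2mE2, against 6.30 in EpiSox2mL2, and Fgf5 differed by 2.63 and 2.84. Fgf4 differed by -1.87 and -1.40. Of 5 ligands 3 were higher and 1 lower in EpiSox2mE1, and 4 and 1 in EpiSox2mE2. Gab1 was at 7.88 in EpiSox2mE1, against 11.05 in EpiSox2mL2, and differed by -2.78 in EpiSox2mE2. Of the 8 other feedback genes 5 were higher and 0 lower in each, with list medians of 0.56 and 0.70. Il17rd, the Sef gene, differed by 1.26 and 1.21 and Flrt3 by 0.93 and 0.95. Of 9 other DUSP genes 2 were higher and 1 lower in EpiSox2mE1, and 2 and 2 in EpiSox2mE2. Dusp2 was at least 2.39-fold and 3.89-fold higher and Dusp1 differed by 1.32 and 0.88, while Dusp14 differed by -1.11 (adjusted p = 0.0014) and -0.69 and Dusp16 by -0.40 in EpiSox2mE2. Of 12 other immediate-early genes 2 were higher and 3 lower in each: Myc was at least 1.68-fold and 1.82-fold higher, Atf3 differed by -1.26 and -1.46, and Jund by -1.18 and -1.19. The Egfr gene differed by -1.68 and -1.17. Feeder markers were higher for 1 of 5 in EpiSox2mE1 (350 and 382 summed) and 4 of 5 in EpiSox2mE2 (418 and 521), against 321 and 262 in EpiSox2mL2. Trophoblast markers were higher for 4 of 5 and lower for 1 in each. Of 6 naive markers 0 were higher and 3 lower in EpiSox2mE1, and 0 and 4 in EpiSox2mE2. Of 5 primed markers tested, which include Fgf5 and Fgf8, 3 were higher and 2 lower in EpiSox2mE1, and 3 and 1 in EpiSox2mE2. The naive calls thus ran against the ESC-like labels of these cultures. The part of any of these markers was not tested.

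Between the 2 ES-medium cultures, limma called 0 of the 10 genes in EpiSox2mE2 against EpiSox2mE1, where 2.38% of all genes were called. The estimates were -0.57 for Fos (95% interval -1.27 to 0.13, adjusted p = 0.49), -0.46 for Egr1 (-1.03 to 0.10) and 0.42 for Spry4 (0.12 to 0.72, adjusted p = 0.16). Spry4 was the 1 gene with an unadjusted p under 0.05, and 0 of the 10 were called in any of the 12 alternatives. Of all calls 46.9% were higher in EpiSox2mE2 (11.7% with the arrays scaled to a common median).

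Against ES cells, the ES-medium cultures had more Dusp4 and Etv5 and less Egr1. The fit called 8 of the 10 in EpiSox2mE1, 6 higher and 2 lower, where it called 67.3% of all genes, and 9 of the 10 in EpiSox2mE2, 6 higher and 3 lower, where it called 65.6%. The members' medians were 0.40 and 0.33, against 0.16 and 0.15 over all genes, and the 2 comparisons share the ESCm arrays. State markers moved with these genes: all 6 naive markers were lower in both cultures (13400 and 15500 summed in EpiSox2mE1 and 17800 and 16200 in EpiSox2mE2, against 48000 and 44200 in ESCm). Of 5 primed markers tested, which include Fgf5 and Fgf8, 4 were higher and 1 lower in both (8150 and 7820 and 8380 and 8440 summed, against 2040 and 2000). Their part was not tested, and the arrays of both cultures were dimmer than those of ESCm (91.39 to 94.1, against 129.4 and 126.1). Dusp4 had 10.94 and 10.78 in EpiSox2mE1 and 10.80 and 10.88 in EpiSox2mE2, against 9.02 and 9.07 in ESCm, 3.52-fold higher (adjusted p = 1.8e-09) and 3.47-fold higher (adjusted p = 2.2e-09). Etv5 differed by 0.94 and 1.05 (0.39 and 0.23 and not called with the arrays scaled to a common median), and Egr1 by -0.83 and -1.29. Etv4 differed by 0.53 and 0.82, Dusp6 by 0.47 and 0.33, Errfi1 by 0.35 and 0.34, and Spry4 by 0.11 and 0.53, but each of these 4 turned below 0 with the arrays scaled to a common median, which put the median of all genes at -0.25 and -0.46. Spred1 gave 0.46 in EpiSox2mE1 and 0.28 in EpiSox2mE2, and turned below 0 as well. The other Dusp6 probes gave -2.78 and -2.66 (ILMN_1248537) and 1.58 and 1.54 (ILMN_2701321), and the mean of the 3 was below 0, at -0.241 and -0.264. Spry2 was called lower but was not well above background in any of these groups. Fos differed by -0.20 in EpiSox2mE1 and by -0.77 in EpiSox2mE2.

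Dusp4 was called in each of the 12 alternatives of both comparisons, and Egr1 in those of EpiSox2mE2. Without EpiSox2mE1 replicate 2, Egr1 gave -0.72 (adjusted p = 0.073) and Etv4 0.51 (adjusted p = 0.063) in EpiSox2mE1. Without ESCm replicate 1, EpiSox2mE1 lost Spred1 (0.42), Etv4 (0.43) and Errfi1 (0.36), and without EpiSox2mE1 replicate 1 it lost Dusp6 (0.34), Spred1 (0.41) and Errfi1 (0.27); without ESCm replicate 2 it lost Errfi1 (0.34). The Spry2 call of EpiSox2mE2 was lost without ESCm replicate 2 (-0.54). In EpiSox2mE2, Dusp6 (0.29 to 0.37) and Errfi1 (0.33 to 0.35) were not called without any 1 of the 4 arrays. Fos there gave -0.42 (adjusted p = 0.36) without EpiSox2mE2 replicate 1, -0.86 without ESCm replicate 1 and -0.68 without ESCm replicate 2, none called. Spry4 gave 0.39 without ESCm replicate 2 and 0.37 without EpiSox2mE2 replicate 2, not called, and Spred1 was called (0.45) without EpiSox2mE2 replicate 1. Of all calls 58.1% were higher in EpiSox2mE1 and 57.4% in EpiSox2mE2, against 31.7% and 21.1% with the arrays scaled to a common median.

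The EC lines, which come from teratocarcinomas, were compared with each other. P19 EC had more Dusp4 and Egr1 and less Spry4, Spred1, Etv4, Etv5 and Errfi1 than F9 EC. The fit called 8 of the 10, 3 higher and 5 lower, where it called 55.1% of all genes; the members' median was -0.25, against 0.00 over all genes. Dusp4 had 10.71 and 10.80 in P19 EC, against 8.73 and 8.78 in F9 EC, 4.01-fold higher (log2 2.00 ± 0.14, adjusted p = 6.6e-10). Egr1 was 2.91-fold higher (log2 1.54 ± 0.27, adjusted p = 9.2e-05). Etv4 had 8.64 and 8.55 in P19 EC, against 10.12 and 10.22 in F9 EC, 2.97-fold lower (log2 -1.57 ± 0.18, adjusted p = 7.9e-07), and Etv5 was 1.58-fold lower (adjusted p = 0.0017). Spred1 was 2.55-fold lower (log2 -1.35 ± 0.14, adjusted p = 2.7e-07) and Spry4 2.46-fold lower (log2 -1.30 ± 0.14, adjusted p = 4.5e-07). These 6 calls were made in each of the 12 alternatives. Errfi1 differed by -0.41 (adjusted p = 0.016) and was not called without F9 EC replicate 1 (-0.41, adjusted p = 0.06), F9 EC replicate 2 (-0.41, adjusted p = 0.063) or P19 EC replicate 2 (-0.35). Spry2 was called higher but not well above background in either line, and its call was lost without F9 EC replicate 1, P19 EC replicate 1 or P19 EC replicate 2 (0.29, 0.59 and 0.45). Of 6 naive markers 5 were lower in P19 EC (1850 and 1820 summed, against 41700 and 38600 in F9 EC), and their part was not tested. Of 5 FGF ligands 3 were higher and 2 lower in P19 EC, with Fgf15 at least 6.07-fold and Fgf8 at least 5.26-fold higher and Fgf17 at least 4.29-fold lower; Spry3 was at least 8.57-fold higher and the Ras relative Mras at least 18.6-fold lower.

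F9 EC had less Egr1, Fos and Errfi1 and more Spry4, Spred1, Etv4 and Etv5 than ESCm. The fit called 7 of the 10, 4 higher and 3 lower, where it called 48.2% of all genes; the members' median was -0.06, against 0.02 over all genes. Egr1 had 9.12 and 8.24 in F9 EC, against 11.43 and 11.42 in ESCm, 6.72-fold lower (log2 -2.75 ± 0.27, adjusted p = 1.9e-07). Fos had 5.77 and 5.97 in F9 EC, against 8.21 and 8.39 in ESCm, 5.39-fold lower (adjusted p = 9.7e-06), and Errfi1 was 2.73-fold lower (adjusted p = 1.2e-07). Spred1 was 1.69-fold (adjusted p = 0.00029), Spry4 1.63-fold (adjusted p = 0.00052) and Etv4 1.62-fold higher (adjusted p = 0.0039), and Etv5 differed by 0.50 (adjusted p = 0.014). Etv5 was not called without ESCm replicate 1 (0.42) or F9 EC replicate 2 (0.33), and the other 6 calls were made in each of the 12 alternatives. Spry2 (-0.41) was called without F9 EC replicate 2 (-0.64, adjusted p = 0.03), though not well above background in either group. Of 9 other DUSP genes 0 were higher and 5 lower, Dusp1 by -1.58, and of 12 other immediate-early genes 3 were higher and 4 lower, Zfp36 by -1.19. Of 5 FGF ligands 0 were higher and 4 lower. Of 5 feeder markers tested 4 were lower, with summed levels of 129 and 121 in F9 EC, against 485 and 434 in ESCm, and their part was not tested.

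The 2 ES lines themselves differed. ESCf had less Dusp4, Dusp6, Spry4, Spred1 and Egr1 than ESCm, and the fit called 6 of the 10, 1 higher and 5 lower, where it called 23.3% of all genes; the 1 higher is Spry2, whose direction the filter fixes, and the members' median was -0.73, against -0.03 over all genes. Dusp4 had 6.6 and 6.97 in ESCf, against 9.02 and 9.07 in ESCm, 4.78-fold lower (log2 -2.26 ± 0.14, adjusted p = 1e-09). Egr1 had 9.29 and 9.55, against 11.43 and 11.42, 4.02-fold lower (log2 -2.01 ± 0.27, adjusted p = 2.8e-05). Dusp6 had 10.47 and 10.47 in ESCf, against 11.81 and 11.82 in ESCm, 2.54-fold lower (log2 -1.34 ± 0.13, adjusted p = 5.7e-07), with -1.29 and -0.65 by its other probes. Spred1 was 2.56-fold lower (adjusted p = 1.9e-06) and Spry4 2.17-fold lower (adjusted p = 1.7e-05). These 5 calls were made in each of the 12 alternatives. Spry2, not well above background in ESCm, was at least 1.2-fold higher. Of all calls 50.6% were higher in ESCf (36.2% with the arrays scaled to a common median). Sex and line cannot be told apart in this pair. Of 9 other DUSP genes 2 were higher, among them Dusp9 (1.63), and 2 lower, among them Dusp14 (-1.50). Of the 8 other feedback genes 1 was higher, Lrig1 (0.79), and 1 lower, Flrt3 (-1.46). Of 12 other immediate-early genes 0 were higher and 2 lower, Myc (-1.33) and Junb (-0.53). Of 3 genes of the EGF receptor system 0 were higher and 2 lower, Hbegf (-0.66) and Nrg1 (-0.63), and of 7 ERK effectors 1 was higher, Ets2 (1.27), and 0 lower.

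Over the 12 group means, the genes most alike among the 45 pairs were Spry4 with Etv5 (Pearson correlation 0.79), Spry4 with Etv4 (0.78), Etv4 with Etv5 (0.75), Dusp4 with Spry4 (0.71) and Egr1 with Fos (0.69). The least alike were Spry2 with Spred1 (-0.75) and Etv4 with Egr1 (-0.62). The groups share lines and parents, so the 12 means are not independent points. The 8932 genes were also ranked by likeness to each gene, with the 10 left out. Those most like each gene were Cstf1 (0.97) and Tgs1 (0.95) for Dusp4, and Kif3c (0.88) and Rab13 (0.83) for Dusp6. For Spry2 they were Wdr44 (0.95) and 1700029P11Rik (0.94), for Spry4 Metap1 (0.95) and Nubp1 (0.95), and for Spred1 Xkr5 (0.92) and Ppil2 (0.90). They were Sec22c (0.98) and 2610507B11Rik (0.96) for Etv4, Patl1 (0.94) and Cmpk1 (0.92) for Etv5, Fam118b (0.89) and Cnn2 (0.89) for Egr1, Cnn2 (0.83) and Csrnp1 (0.80) for Fos, and Pank2 (0.95) and Mapk1ip1 (0.93) for Errfi1. The 45 pairs among the 10 genes reached 0.79 at most, and each gene's nearest gene outside the 10 reached 0.83 or more. The outside genes were the highest of far more candidates, so these values cannot be compared.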

How the data were processed

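RNA from 24 samples in 12 groups was profiled on MouseRef-8 v2 BeadChips. The deposited table holds, per the file headers, a signal intensity and a detection p-value for each of 25697 probes on each array. The authors' value table, used as an alternative, holds log2 values with a median of 3.68 in every column; its scaling is not stated. BeadStudio 3.2, RMA and lumi are named in the submitters' processing notes, with no role given. The labels state 300 ng of RNA and 18 h of hybridisation, and give both 10 h and 12 h for the in-vitro transcription.

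Intensities were corrected with limma 3.58.1 in R 4.3.3 (normexp background estimated from the detection p-values, offset 16), quantile normalised and put on the log2 scale. Probes with a detection p under 0.01 in each duplicate of any group were kept (13082 probes). Of all probes, 23978 have 1 gene symbol in the platform annotation and 1719 none; the brightest kept probe stood for each of 8932 genes, and 2395 genes have more than 1. One mean per group was fitted over all 24 arrays (12 residual and 5.58 prior degrees of freedom), so groups share 1 estimate of the spread. Values marked ± are standard errors with n = 2 arrays a group. Differences were called at a Benjamini-Hochberg adjusted p under 0.05 over all genes, and other probes of a gene come from a fit of all kept probes. The number of arrays limits the precision. The procedure was tested on simulated data.

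Where a probe is above background in 1 group only, the fold is given as at least the bright group's level over the detection limit. Named besides the 10 genes are, for each pathway list, up to 2 called genes with the largest change in each direction in a comparison, and the 2 genes nearest to each of the 10 over group means. The members and lists were chosen with earlier results of these data known. Replicate numbers did not pair the samples: same-numbered arrays deviated with correlations of -0.17 to 0.07, and 0 of 16 comparisons exceeded 0.1. Alternatives were no background subtraction, an offset of 50, median scaling, the authors' log2 values, no detection filter, the mean of all kept probes, only the groups compared, a replicate block and leaving out each array. Gene loci and promoter sequences come from RefSeq (GRCm38.p6).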

Additional observations from a re-analysis of the deposited data

Results flagged for a closer look

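The primed-minus-naive effect differed between the OG2 female and the male pair by the fit's test of that difference, female minus male. It differed by 2.34 for Dusp6, 2.11 for Spred1, -1.63 for Etv4, 3.25 for Egr1, 2.70 for Fos and -0.98 for Errfi1. The other Dusp6 probes gave differences of 4.80 and 1.19; their effects were 1.14 and 1.13 in the female pair, and -3.66 and -0.05 (adjusted p = 0.85) in the male pair.

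The Sox2 effect differed between the EC lines, P19 minus F9, by -0.97 for Dusp4, -0.73 for Etv5 and -1.52 for Egr1. The other Dusp4 probes gave -0.62 and -1.44 and were not called. The Etv5 call was lost under several alternatives, and the Egr1 call when single arrays were left out. The Sox2-line effect differed between the EpiSCs, EpiSox2mL2 minus the arrays labelled Epi-Sox2f, by 2.24 for Dusp4, 1.28 for Spred1, 1.02 for Etv4 and 1.46 for Etv5; Sox2 was not higher on the arrays labelled Epi-Sox2f. With 2 arrays a group, no array was tested for standing apart from its group.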

How the results depend on the processing

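Of 2400 values of the 10 genes under the alternatives, 2228 kept their side of the threshold, 60 of them with a change of sign and no call in either setting; 130 lost the call, 28 gained it and 14 turned with a call. Scaling the arrays to a common median gave 3 called genes in EpiSox2mE2 against EpiSox2mL2 and 5 in EpiSox2mE1 against ESCm. Under that scaling EpiSox2mE1 against ESCm turned for Dusp6 (-0.068), Spry4 (-0.532), Spred1 (-0.104), Etv4 (-0.022) and Errfi1 (-0.207), and EpiSox2mE2 against ESCm for Dusp6 (-0.446), Spry4 (-0.357), Spred1 (-0.556), Etv4 (-0.003) and Errfi1 (-0.492). The female-minus-male difference turned for Dusp4 (0.671) and Spry4 (0.70) and was gained for Etv5 (1.18, adjusted p = 0.0013), with 8 genes called. The mean of all kept Dusp6 probes turned it against ESCm (-0.241 in EpiSox2mE1, -0.264 in EpiSox2mE2). The cause was not tested. Fitting only the groups compared left 3 calls in EpiSox2mL2 against EpiSCm, with fewer arrays to estimate the spread. Leaving out 1 array gave 5 to 7 calls in EpiSox2mE1 and 4 to 7 in EpiSox2mE2 against ESCm, 2 to 3 in F9-Sox2, 0 to 3 in P19-Sox2, 1 to 3 in the P19-minus-F9 difference, and 3 to 5 in EpiSox2mE1 and 3 to 6 in EpiSox2mE2 against EpiSox2mL2. The replicate block left Etv5 in the P19-minus-F9 difference at an adjusted p of 0.056 and Fos in EpiSox2mE2 against ESCm at 0.055 (-0.77), and gained Spry2 in F9 EC against ESCm at 0.048 (-0.41); it changed no other call of the 10 genes. Over all genes, fitting only the groups compared called 574 genes in P19-Sox2 (929 in the fit of all groups), 676 in EpiSox2mL2 (2167), 1313 in EpiSox2mE1 (2565) and 802 in EpiSox2mE2 (2535) against EpiSCm, 1690 in EpiSox2mE2 against EpiSox2mL2 (3139) and 10 in EpiSox2mE2 against EpiSox2mE1 (213). Leaving out 1 array called 469 to 505 genes in F9-Sox2 (868), 480 to 742 in P19-Sox2, 1493 to 1768 in the arrays labelled Epi-Sox2f (2577), 1154 and 1398 in EpiSox2mL2 without its replicate 1 or 2, 1351 and 1292 in ESCf against ESCm (2083) without ESCm replicate 1 or 2, and 99 in EpiSox2mE2 against EpiSox2mE1 without EpiSox2mE1 replicate 2. A chip block was not run, since the column names give no chip. Levels of Spry2 and of Dusp4 in the arrays labelled Epi-Sox2f lie near background.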

Other observations

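Map2k1, which encodes the kinase MEK1, separated the GOF18 groups from the rest, as the Dusp6 probe ILMN_1248537 did. Its mean log2 intensity was 5.48 in EpiSox2mE2, 5.28 in EpiSox2mE1, 4.57 in EpiSox2mL2 and 4.51 in EpiSCm, where 1 of the 8 arrays detected it, against 7.99 to 9.49 in the other 8 groups, where every array did. Both probes were picked out after their values were seen, and whether the sequence under them differs in the GOF18 lines was not tested.

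Gab1, the docking adaptor of FGF and other receptors, read a mean of 12.08 in ESCm, 11.77 in ESCf, 11.15 in F9-Sox2, 11.11 in F9 EC and 11.05 in EpiSox2mL2. It read 8.91 in EpiSCm, 8.44 in P19-Sox2, 8.27 in P19 EC, 8.27 in EpiSox2mE2, 8.07 in the arrays labelled Epi-Sox2f, 7.88 in EpiSox2mE1 and 7.81 in EpiSCf. Within the GOF18 family, the Sox2 EpiSCs in EpiSC medium lay with the ES and F9 groups and those in ES cell medium with the EpiSC and P19 groups.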
